A study of Mus musculus with 5 samples.

Results

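The genes described here are the replication-dependent histone genes of histone cluster 1 on mouse chromosome 13, taken as every annotated histone gene that lies within chr13:21710000-22000000 or chr13:23530000-23770000 of the mm10 build. They number 49 of 49943 annotated genes on chromosomes 1 to 19, X and Y: 6 genes for the linker histone H1, 12 for H2A, 12 for H2B, 9 for H3 and 10 for H4, with 2 annotated pseudogenes, H2ac14 and H2ac5-ps, among the H2A genes. CpG methylation was read by whole-genome bisulfite sequencing in C57BL/6 mouse sperm that swam out of the cauda epididymis, where mature sperm are stored. The 2 old libraries came from mice aged 18 months and the 3 young libraries from mice aged 2 months. The labels name no other treatment or allele and do not say whether each library is a separate animal or a pool. Every p-value therefore concerns these libraries only. Those from read counts also rest on counting error and on a spread shared across gene regions or CpGs.

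Replication-dependent histone genes supply the histones that package newly copied DNA in S phase. Most are short and have no intron, and their mRNAs end in a stem-loop in place of a poly(A) tail. H2A, H2B, H3 and H4 form the nucleosome core, and H1 binds the DNA between cores. During spermatid maturation most histones are exchanged for protamines, and the testis makes its own variants, among them H1f6, H2ac1 and H2bc1.

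The listed reads summed to 90640296 and 90716510 in the old libraries and to between 67774094 and 97769462 in the young ones, with a median of 6 or 7 reads per listed cytosine. No cytosine with fewer than 5 reads is listed. A CpG was used where at least 4 of the 5 libraries had 5 or more reads over both strands, which held for 3605848 of 13063725 listed CpGs (27.6%). Histone regions, meaning the annotated gene with 500 bp either side, were thinly covered. Only 18 of the 49 members had a used CpG, 155 CpGs in all, while 45 had a CpG listed in at least 1 library. The 4 members with no listed CpG were H2bc23, H2ac23, H2ac24 and H4bc24; H4bc24 carries the older symbol Hist1h2br and was counted with H2B. The 300-base promoter sequences of H2bc23 and H4bc24 were identical at 300 of 300 bases. For the thinly covered members, reads were also pooled over every listed CpG, a measure that rests on different CpGs in each library. A partial level over several CpGs cannot tell a few sperm methylated at all of them from many sperm methylated at some of them.

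Label checks against marker genes were mixed. Sperm is known to carry the control regions of maternally imprinted genes unmethylated. Of 14 starts of such genes with reads, alternative starts outside the control regions included, 5 were under 20% and 3 over 80%, the 3 being 2 starts of Snrpn and 1 of Grb10. Another start of Snrpn was at 11.5%. Pooled over all 14 the level was 51.6% and 39.1% in old replicates 1 and 2, against 38.0%, 30.1% and 52.0% in young replicates 1, 2 and 3. Of 11 starts of germline genes, 2 were under 20% and 4 over 80%. Of the leukocyte genes, the starts of Ptprc and Itgam were at 87.4% and 95.4% and that of Cd3e at 36.0% of 25 reads. Of the epididymal genes, 3 starts of Pax2 were at 0% and those of Crisp1, Lcn5 and Lcn8 at 82.7% or more. The part of other cells or of incomplete conversion in the histone results was not tested.

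The promoters below, from 250 bases before to 50 bases after the start, are RefSeq sequences of build GRCm38.p6, the same assembly as mm10, on the strand of the gene. They show an H3 promoter with every CpG listed, the H2A promoter in which all but the last CpG was used, an H4 promoter with no methylated read, read in 1 library only, and the promoter of the testis-specific pair. Capitals mark CpGs listed in at least 1 library.
H3c4, chr13:23575513-23575812, plus strand: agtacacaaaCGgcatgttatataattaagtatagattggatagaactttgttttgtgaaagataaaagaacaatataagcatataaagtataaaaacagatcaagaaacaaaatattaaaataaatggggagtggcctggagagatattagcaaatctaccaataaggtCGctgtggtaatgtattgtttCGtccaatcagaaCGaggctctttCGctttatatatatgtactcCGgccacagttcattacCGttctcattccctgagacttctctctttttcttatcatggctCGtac
H2ac4, chr13:23750838-23751137, plus strand: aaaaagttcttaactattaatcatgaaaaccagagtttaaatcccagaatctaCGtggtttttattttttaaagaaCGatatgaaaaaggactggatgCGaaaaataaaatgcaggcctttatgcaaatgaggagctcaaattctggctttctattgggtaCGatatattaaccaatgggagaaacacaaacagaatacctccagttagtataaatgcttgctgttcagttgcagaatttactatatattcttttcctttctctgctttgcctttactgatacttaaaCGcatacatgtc
H4c8, chr13:23530794-23531093, plus strand: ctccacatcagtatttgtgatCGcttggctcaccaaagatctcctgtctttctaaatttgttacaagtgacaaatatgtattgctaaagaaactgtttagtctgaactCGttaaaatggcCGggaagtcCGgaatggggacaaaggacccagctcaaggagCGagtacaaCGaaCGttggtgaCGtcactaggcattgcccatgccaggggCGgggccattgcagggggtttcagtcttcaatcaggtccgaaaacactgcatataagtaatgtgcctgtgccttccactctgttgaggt
H2ac1, chr13:23934187-23934486, plus strand: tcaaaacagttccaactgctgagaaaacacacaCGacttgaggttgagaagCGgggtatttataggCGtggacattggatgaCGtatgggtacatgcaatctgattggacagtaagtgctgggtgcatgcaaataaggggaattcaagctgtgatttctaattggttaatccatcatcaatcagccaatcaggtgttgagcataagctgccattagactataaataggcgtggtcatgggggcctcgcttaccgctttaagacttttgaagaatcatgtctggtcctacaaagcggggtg
In H3c4, 8 of 8 CpGs were listed, and 1 methylated read was found among them, 35 bases before the start in old replicate 1 (1 of 7 reads, 14.3%). In H2ac4, 5 of 5 CpGs were listed, with scattered methylated reads in 4 of the 5 libraries. In H4c8, 9 of 10 CpGs were listed, each in old replicate 1 alone, with no methylated read.

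Histone promoters carried little methylation in these sperm in every class of CpG number. The table of promoters held 45 sequences for 44 members, and 208 of their 537 CpGs (38.7%) were listed in at least 1 library. Of these promoters 37 had reads, and all 37 were under 20% methylated, 24 of them with no methylated read and the highest at 6.45%. Divergent neighbours share CpGs and reads, so the 37 make 32 separate stretches, with 5 to 227 reads each. Counting each read at each CpG as independent, 16 of the 24 without a methylated read limit the level to under 20%. Another 4 had 5 reads, which allow up to 60%. The same molecule can be counted at several CpGs, so these limits can be too tight. Across all promoters with reads the share under 20% was 38.7% of 18286. With 1 to 5 CpGs, 4 of 4 histone promoters were under 20%, against 4.98% of all such promoters. With 6 to 10 CpGs the count was 16 of 16, against 34.4%. Promoters of any kind were mostly that low above 15 CpGs, at 94.1% with 16 to 20, 97.5% with 21 to 30 and 83.1% with 31 to 80 CpGs, a class without histone promoters. Leaving out any 1 library left 32 to 37 histone promoters with reads, and every one of them stayed under 20%.

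**Figure D1:**
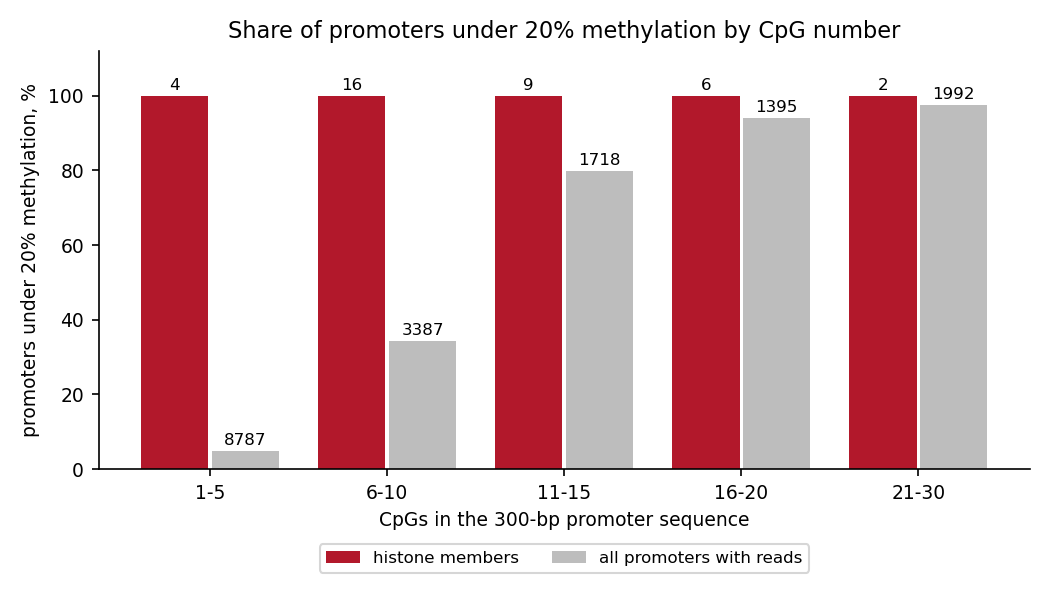
Percent of 300-bp promoters under 20% methylation, by the number of CpGs in the sequence (x axis), for histone members (red) and all promoters with reads (grey); the number above a bar is the promoters with reads. Histone promoters reach 100% in every class, while all promoters stand at 4.98% with 1 to 5 CpGs and 34.4% with 6 to 10.

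Sequence elements of histone promoters were searched in the same 300 bases on both strands. TATAA, the core of the TATA box, was in 35 of 45 histone promoters (77.8%), against 24.9% of all 32851 promoters. CCAAT was in 38 (84.4%), against 37.4%, and the 7 without it were all H4 promoters. ATTTGCA, the reverse of the octamer-like TGCAAAT, was in 7 (15.6%), against 4.02%, namely 4 H2B and 3 H2A promoters. AAACAC, known from H1 promoters, was in 6 of 6 H1 promoters, among 11 histone promoters in all (24.4%), against 16.3% of all promoters. A match is only a string of letters, and these motifs can overlap. H2ac4, printed above, holds the octamer-like element, CCAAT and AAACAC.

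Measured over gene and flanks, the members fell into short genes with little methylation and long annotated spans with much. The median level of the 18 measured members was 5.87%, against 92.1% for all 37539 gene regions measured, of which 1.85% lay under 20%. Those regions were not matched to the members in length, so they are not a like background for short genes. The short tRNA genes of the same windows had a median of 13.3%, and 38.7% of all promoters with reads lay under 20%. All 15 measured members with a span of at most 1000 bp, called compact here, averaged under 20%. The 3 measured long members were H2B genes: H2bc6 averaged 74.1% over 37455 bp, H2bc4 averaged 73.0% over 8282 bp and H2bc22 averaged 34.3% over 14079 bp. The other long spans, H2bc23 and H4bc24 of 3788 bp each, had no listed CpG.

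**Figure D2:**
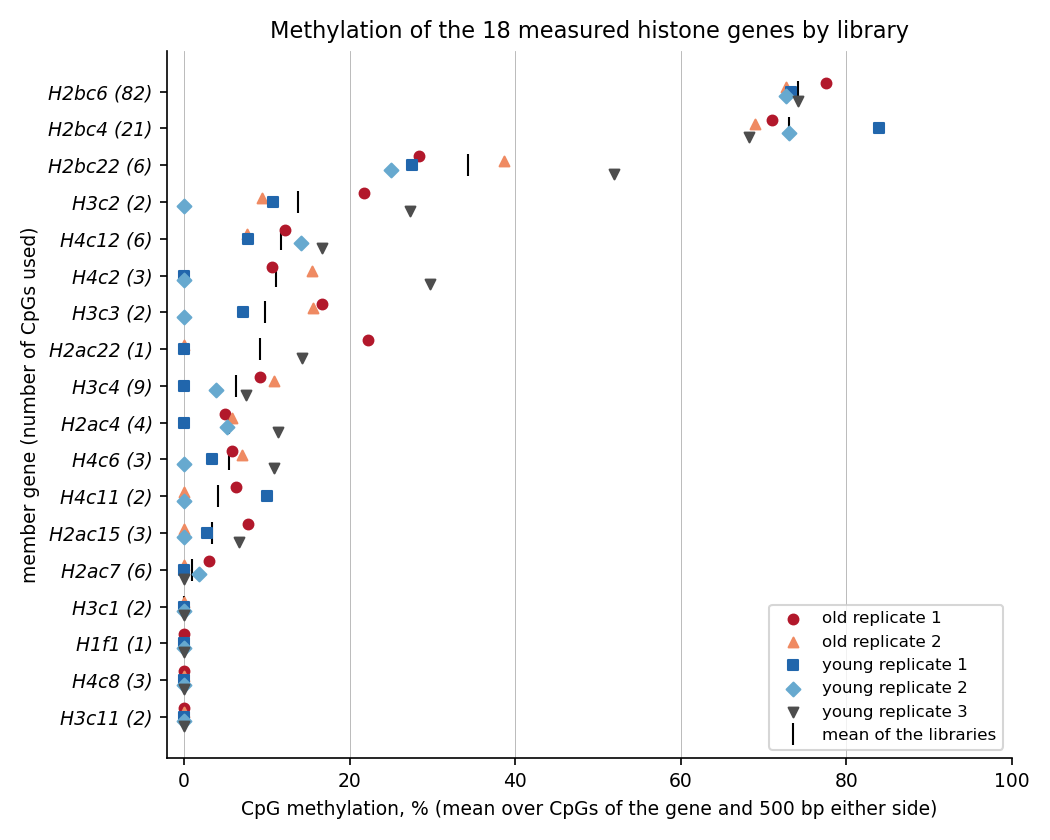
CpG methylation in percent (x axis, mean over the used CpGs of gene and 500 bp either side) of the 18 measured members, by library; the black tick is the mean of the libraries and the number after a name is its used CpGs. Compact genes lie under 30% in every library, and H2bc6 and H2bc4 lie between 68.3% and 83.9%.

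Set against the rest of the windows, histone regions were lower in every library. Their mean over CpGs was 55.2% and 51.9% in old replicates 1 and 2, against 49.97%, 52.3% and 54.9% in young replicates 1, 2 and 3. The rest of the windows, 772 CpGs, stood at 63.3% and 64.5% in the old libraries, against 62.8%, 63.3% and 64.7% in the young ones. Histone regions were thus lower by 10.9 points on average (SD 1.99, n = 5 libraries), and the gap lay between -8.09 and -12.8 points. That figure mixes 46 CpGs of compact members with 109 of the long spans, and its sign depended on the CpGs used: histone regions were 9.46 points higher with the gene span alone, which leaves 2 used CpGs inside compact genes, and 18.1 points higher with 10 or more reads per CpG. Compact members alone were lower than the rest of the windows by 57.4 points, with 8.31% and 6.40% in the old libraries, against 2.67%, 3.31% and 10.7% in the young ones. The long spans outside compact genes stood at 74.4% and 69.9% in old libraries, against 72.6%, 70.8% and 71.9% in young ones.

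Low methylation ended within about 1000 bp of a compact gene. Over every listed CpG, the mean of the 5 libraries was 1.24% inside compact genes, 4.95% from 1 to 500 bp away and 26.9% from 501 to 1000 bp. From 1001 to 2000 bp it was 72.1%, and from 2001 to 5000 bp 80.6%. Beyond 10000 bp it was 66.4%, where the windows also hold tRNA genes with low methylation. Between 1 and 500 bp young replicate 3 stood at 8.65%, above the other 4 libraries at 3.73% to 4.40%.

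**Figure D3:**
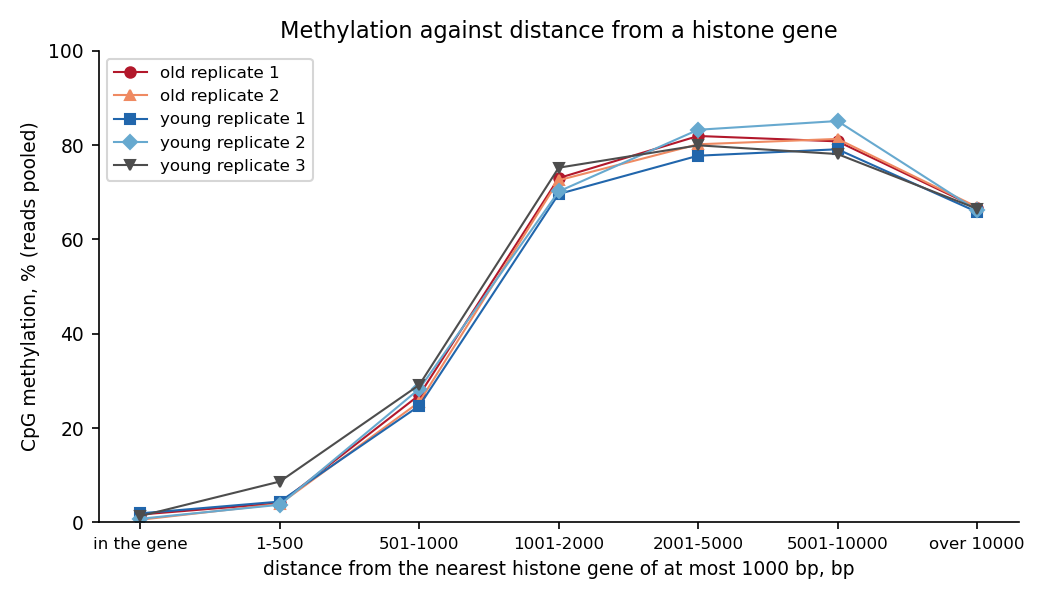
CpG methylation in percent (y axis, reads pooled over every listed CpG) against distance in bp from the nearest compact histone gene (x axis), one line per library. All 5 libraries lie under 2% inside the genes and between 69.6% and 75.2% at 1001 to 2000 bp.

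From 250 to 750 bp away, methylation was lower after the start than before it in each library. In the 250 bp just before the start the 5 libraries lay between 0.70% and 1.67%, and from 250 to 499 bp after it between 0% and 1.15%. From 501 to 750 bp before the start they lay between 11.8% and 20.6%, while from 500 to 749 bp after it they lay between 1.71% and 5.23%. Further out they lay between 3.94% and 20.5% in the next 250 bp before the start, and between 4.80% and 15.9% at 750 to 999 bp after it. From 1500 to 1749 bp after the start, past the end of the compact genes, they lay between 32.7% and 47.0%. By part of the gene, the gene span itself held 1.44% methylated reads of 1873, the 500 bp before the start 3.48% of 3194, and the 500 bp past the end 6.03% of 2784. In the span 20 of 32 compact members with reads had no methylated read, and none exceeded 20%. In the 500 bp before the start 19 of 34 had no methylated read, and 1 exceeded 20%, H1f6. Past the end 4 members exceeded 20%: H2bc14, H1f6, H3c2 and H1f1.

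**Figure D4:**
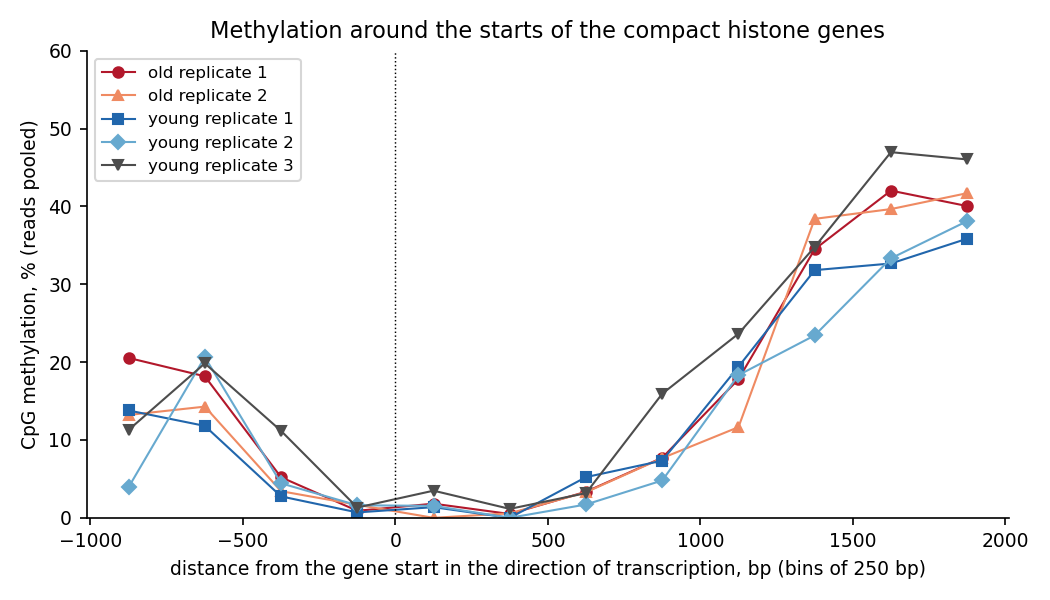
CpG methylation in percent (y axis, reads pooled, bins of 250 bp) by distance in bp from the start of compact histone genes in the direction of transcription (x axis), one line per library. Every library is under 4% from 250 bp before to 500 bp after the start and over 32% from 1500 bp after it.

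Of the long H2B spans, H2bc6 and H2bc22 were also low at their starts. Within 500 bp of the start, H2bc6 had 1.49% of 134 reads methylated, and the rest of its span had 77.6% of 7494. H2bc22 had 2.07% of 145 reads methylated at the start, and 60.6% of 620 over the rest. Old replicate 1 and young replicate 2 had no reads at that start. The promoters of H2bc22 and the compact gene H2ac22 overlap, with 14 listed CpGs and 94 reads in each. The start of H2bc22 is therefore not separate from a compact gene. H2bc4 has no strand in the annotation used and was not split. Members lie close together, and 3 used CpGs were shared by several of them.

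Among the H3 genes, H3c11 (chr13:21782915-21783397) was at 0% in all 5 libraries over 2 CpGs. By every listed CpG it had 0 of 185 reads methylated in old and 4 of 153 in young sperm, the 4 all in young replicate 2 and past the end, and with 1000 bp either side old sperm was 21.1 points lower (unadjusted p = 0.0616, quasi-binomial model across all gene regions). H3c1 (chr13:23761885-23762386) was at 0% in the 4 libraries with a value. H3c2 (chr13:23752345-23752840) was the highest compact member by used CpGs, at 21.7% and 9.38% in the old libraries, against 10.7%, 0% and 27.3% in the young ones. Those groups overlap, with young replicates at both ends. By every listed CpG, the 500 bp before the start of H3c2 had no methylated read, while the 1 CpG listed past its end had 20.5% in old and 30% in young sperm.

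H3c4 (chr13:23575763-23576266) was the 1 member of the 13 with values in all 5 libraries in which each old library lay above each young one, and none lay below. Across all gene regions with 5 values 7.88% had old above young and 7.09% old below, 15.0% of 34057 in either direction. H3c4 stood at 9.19% and 10.9% in old replicates 1 and 2, against 0%, 3.87% and 7.50% in young replicates 1, 2 and 3. The old mean was 10.04% ± 1.20 (SD, n = 2) and the young mean 3.79% ± 3.75 (SD, n = 3). This difference of 6.25 points had the smallest p among members, 0.0944 in the quasi-binomial model, with a Benjamini-Hochberg adjusted p of 1.0. By every listed CpG, a measure added after seeing the data, the unadjusted p was 0.0259 in the same model. By that measure 1 of 40 tested members and 1778 of 43612 gene regions had an unadjusted p under 0.05. Most methylated reads of H3c4 lay past the end of the gene, 19 of 21 in old and 7 of 9 in young sperm. There old sperm had 19 of 81 reads methylated (23.5%, Wilson 95% interval 15.6% to 33.8%), and young sperm 7 of 78 (8.97%, 4.42% to 17.4%). These intervals pool libraries and CpGs as independent reads. They leave out the spread between libraries and are not a test of age. In the 500 bp before the start the counts were 1 of 121 in old and 1 of 244 in young sperm. Past the end young replicate 3, with 3 of 10 reads, was above old replicates 1 (9 of 43) and 2 (10 of 38).

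H3c3 (chr13:23745042-23745521) had the largest difference, 12.5 points, with 16.7% and 15.6% in the old libraries, against 7.14% and 0% in young replicates 1 and 2 and no value in young replicate 3. It rests on 2 CpGs, and its p was 0.265. By every listed CpG, old sperm had 3.49% and young sperm 4.24% over the whole region, so the direction did not hold. No methylated read lay in its span or before its start.

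Among the H4 genes, H4c8 (chr13:23531044-23531478) had no methylated read among 549 over every listed CpG of the region. Counted as independent reads, these allow a level of up to 0.546%. The same molecule can be counted at several CpGs, so that limit can be too tight. By every listed CpG, H4c12 (chr13:21750145-21750553) was the highest among compact H4 genes, at 15.8% of 455 reads. Its used CpGs gave 12.2% and 7.64% in the old libraries, against 7.70%, 14.1% and 16.7% in the young ones, a difference of -2.91 points (p = 0.487, quasi-binomial model across all gene regions) that lay between -5.48 and -0.64 points with a library left out. Its methylated reads lay in the 500 bp before the start, with 14.3% in old and 19.2% in young sperm. H4c2 (chr13:23756937-23757386) ranged most among members, at 10.7% and 15.4% in the old libraries, against 0%, 0% and 29.7% in the young ones. Young replicate 3 was the highest and young replicates 1 and 2 the lowest. H4c11 (chr13:21735034-21735456) differed by -1.88 points, with 6.25% and 0% in old libraries, against 10% and 0% in young replicates 1 and 2.

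The H2A and H2B genes gave 7 measured members. H2ac22 (chr13:21786774-21787248), with 1 used CpG, stood at 22.2% and 0% in old libraries, against 0% in young replicate 1 and 14.3% in young replicate 3. H2ac4, H2ac15 and H2ac7 averaged 5.46%, 3.43% and 0.98%. H2bc4 (chr13:23684199-23692480) had the most negative difference, -5.15 points, at 71.0% and 68.9% in old libraries, against 83.9%, 73.1% and 68.3% in young ones. Only young replicates 1 and 2 lay above both old libraries, and without young replicate 1 the difference was -0.74 points. H2bc22 (chr13:21787483-21801561) stood at 28.3% and 38.7% in old libraries, against 27.5%, 25.0% and 52.0% in young ones, with young replicate 3 the highest. H2bc6 (chr13:23583670-23621124), with 82 used CpGs the best measured member, stood at 77.6% and 72.7% in old libraries, against 73.4%, 72.8% and 74.2% in young ones.

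Of the 6 linker histone genes, H1f1 (chr13:23763668-23764412) alone had a used CpG, at 0% in the 4 libraries with a value. By every listed CpG, H1f1 had 0 of 40 reads methylated in old and 25 of 194 in young sperm (12.9%). Young replicates 1, 2 and 3 stood at 13.2%, 16.1% and 3.85%, and the unadjusted p was 0.0704 in the quasi-binomial model across all gene regions. Of its methylated reads 13 lay past the end, where old sperm had no reads. H1f2, H1f3, H1f4 and H1f5 were between 0.388% and 1.57% by that measure. H1f6 (chr13:23695811-23696545), which encodes the testis-specific H1t, was the highest compact member by that measure, at 39.6% of 48 reads over 6 CpGs. It had 23.8% in old and 51.9% in young sperm, and none of its listed CpGs lay in the promoter sequence.

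H2bc1 and H2ac1, the testis-specific H2B and H2A genes, lie outside the windows and share a promoter between divergent starts (chr13:23934157-23934436). The 4 CpGs listed there, all in the H2ac1 sequence printed above, had 1 of 5 reads methylated in old replicate 1 and none read in old replicate 2. In young replicate 1 the count was 1 of 25, in young replicate 2 it was 0 of 5, and in young replicate 3 it was 15 of 20 (75.0%, Wilson 95% interval 53.1% to 88.8%). Young replicate 3 was the highest there. Old replicate 1 and young replicate 2 rest on 5 reads each, too few to call them low. The CpGs are close together, so the same few molecules can be counted at each, and the interval covers counting error only. Young replicate 3 was also the highest of the 5 at compact histone genes. By every listed CpG it was the highest at the tRNA genes of the windows too, at 20.7%, against 11.2% to 16.1%. Over all used CpGs of the genome it was the lowest, at 88.4%, against 89.3% to 89.6%. Its part in the histone values was not tested.

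**Figure D5:**
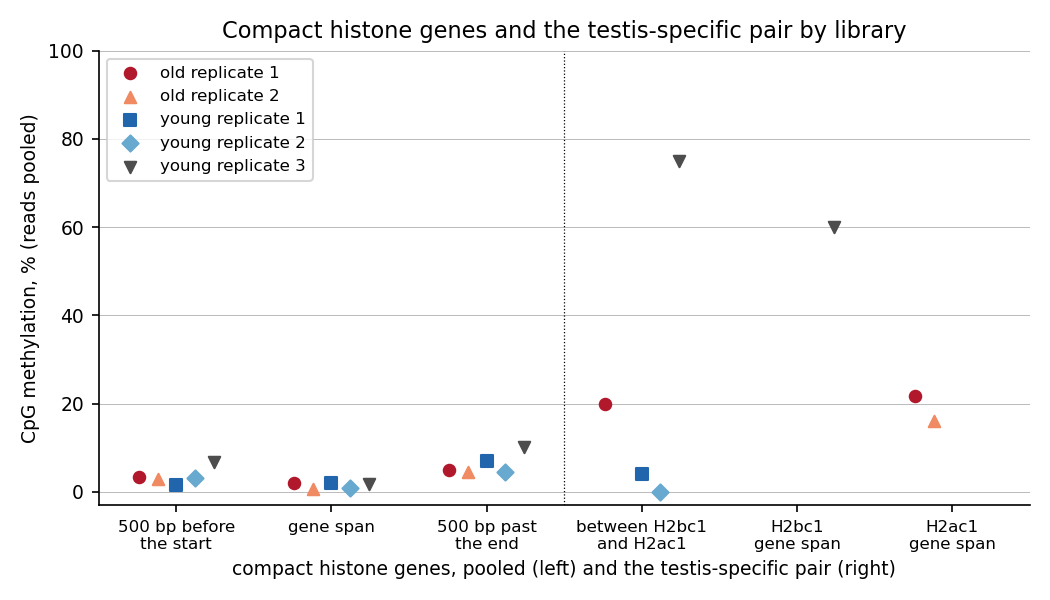
CpG methylation in percent (y axis, reads pooled over every listed CpG) by library, for the parts of all compact histone genes with a known strand (left of the dotted line) and for the testis-specific pair H2bc1 and H2ac1 (right); libraries without reads have no point. Young replicate 3 is at 75.0% between H2bc1 and H2ac1, and at 6.69% before and 10.2% past the compact genes.

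No age difference was called at the histone genes. In a quasi-binomial model fitted to all gene regions, 0 of 18 members had an adjusted p under 0.05 with a difference of at least 10 points, and 0 had an unadjusted p under 0.05. Across all 37539 gene regions 0 were called (0.0%) and 690 (1.84%) had an unadjusted p under 0.05. Of the 18 members 9 were higher in old sperm, 5 lower and 4 equal, with a median difference of 0.35 points, against 0.0701 over all gene regions. Over the 13 members with a value in all 5 libraries the mean difference was 0.60 points, and the young libraries alone spread with an SD of 4.55 points. The rest of the windows differed by 0.325 points (exact permutation test over 10 splits, two-sided p = 0.7, where the smallest possible p is 0.1).

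Compact members averaged 7.35% ± 1.35 (SD, n = 2) in old and 5.55% ± 4.44 (SD, n = 3) in young sperm over used CpGs. The difference was 1.80 points with all libraries and 4.36 points without young replicate 3, and it was 0.366 points without young replicate 1. Over every listed CpG it ran the other way, with 3.24% in old and 4.36% in young sperm. The direction of any age difference at these genes was therefore not settled by these libraries.

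Of the 155 single CpGs in histone regions 0 were called, and 5 had an unadjusted p under 0.05; across the genome 0 of 3605848 were called (0.0%) and 2.89% had an unadjusted p under 0.05. The 5 lay in H2bc6 (2 CpGs), H2bc22, H2ac4 and H3c3, and their adjusted p was 0.896 each. Largest was a CpG of H2bc6 at chr13:23613123, at 100% in both old libraries, against 80% and 60% in young replicates 1 and 3, on 5 to 12 reads. The H2ac4 CpG, 152 bases before the start at chr13:23750936, had 3 of 13 reads methylated in old replicate 2 and none in the other 4 libraries. The CpG of H3c3 at chr13:23744879 stood at 33.3% and 20% in old libraries, against 0% in young replicates 1 and 2.

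Histone genes elsewhere in the genome were described in the same way, without a test between lists. Of 15 genes in the other histone clusters 5 were measured, with a median level of 15.7%, and 0 were called. Their largest differences were in H3c13 (-19.5 points), H2ac19 (10.9 points) and H3f4 (-5.40 points), the first and second on 1 CpG each. Replication-independent variants, whose making is not confined to S phase, had a median of 86.2% over the 9 measured of 15 genes. Many of these genes have long spans. H3f3a averaged 37.6% in old and 39.0% in young sperm. Shorter variants without a used CpG were low by every listed CpG, with H2ax at 0% of 90 reads, H1f10 at 1.82% of 55 and H1f0 at 3.65% of 192, while H2al2a stood at 66.0% of 106. Differences were largest in H1f7 (-5.80 points), Cenpa (4.63 points) and H3f3b (3.73 points), with 5 higher, 4 lower and 0 called. Of 15 genes for factors that make or cut histone mRNA 15 were measured, with a median of 90.7%, 10 higher and 5 lower in old sperm, and 0 called. Srrt averaged 88.7% ± 0.95 (SD, n = 2) in old and 78.9% ± 10.3 (SD, n = 3) in young sperm, a spread among young libraries larger than the difference. Lsm11, a part of the U7 particle that cuts histone mRNA, differed by 6.08 points and Cpsf3, the cutting enzyme, by -2.93 points. Within the windows, 22 of 28 tRNA genes were measured with a median of 13.3%, and 11 of 13 other non-histone genes with a median of 91.1%. None of either kind was called.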

How the data were processed

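CpG methylation was measured in 5 bisulfite libraries of mouse sperm, 2 old and 3 young, grouped by the labels. The submitters' processing notes name methylKit 1.4.0, Bismark 0.16.3, Trim Galore 0.4.3 and the mm10 (GRCm38) build; settings and duplicate removal are not given in the sources used. Per the file headers, the deposited files list for each cytosine and strand the coverage as a count of reads. The deposited files also give, per the file headers, the percent of those reads that were C (methylated) and T. Percent times coverage gave whole reads for 100% of cytosines, within the rounding of the percent.

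Strands were summed. A CpG was used with 5 or more reads in at least 4 libraries. A gene region, from the RefSeq table of the same assembly, was its span with 500 bp either side, and its level the mean of its CpGs' percents. Old was tested against young for all 37539 regions and 3605848 CpGs with quasi-binomial logistic regression on the 2 read counts. Its dispersion was moderated as in limma's squeezeVar, with a prior from features of expected binomial variance of at least 2. Adjustment was by Benjamini-Hochberg over the whole table. Calls were made at an adjusted p under 0.05 with at least 10 points. Tests were checked on simulated data, on which that prior was chosen after the design was fixed. Only highly methylated features were lowered there, so the check does not cover a change at genes with little methylation. No p was computed for a score over the members.

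Named members were those with the 4 highest and 4 lowest levels, the 3 largest and 3 most negative differences, the 3 largest ranges and the smallest p, the testis-specific genes and those without a CpG. The other list genes named had the 3 largest absolute differences and the CpGs named were among the 5 with the smallest p; members given by their listed reads or by the parts of their regions were named after their values were seen. The members and lists were chosen with earlier results of these data known. H4f16, first put among replication-independent variants, was counted with the other histone clusters since an older symbol places it there, and H1f9, H2bw2 and H3f5 did not match the gene table. Levels over every listed CpG, the compact genes and their parts were added after seeing the data. Alternatives covered the coverage minimum and upper limit, the flank, pooling of reads, a binomial model, a limma-type test, the replicate number and each library left out. Unconverted bases look methylated in such reads, and reads of near-identical copies can be lost or misplaced. Intervals cover counting error only. Scripts ran in Python 3.11.15 with scipy 1.17.1, numpy 2.4.6, matplotlib 3.10.9 and pandas 2.3.3.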

Additional observations from a re-analysis of the deposited data

How the results depend on the processing

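The gap between histone regions and the rest of the windows depended on which CpGs entered. It was -10.9 points as reported, 18.1 with 10 or more reads, -1.83 with 5 or more reads in all 5 libraries, 9.46 for the gene span alone and -18.7 with 1000 bp either side. It was -4.57 with reads pooled over CpGs, -57.4 for compact members and -25.3 over every listed CpG, the last 2 added after seeing the data, and -11.6 to -10.4 with a library left out. The mean age difference over members stayed within 1 SD of the young libraries under all alternatives run, but its sign turned under several; with a library left out it lay between -0.96 and 3.21 points. That of the rest of the windows lay between -0.275 and 0.924 points with a library left out and was -0.115 with 5 or more reads in all 5 libraries. Calls at members and member CpGs stayed at 0 under every alternative run, while the binomial model without extra dispersion called 193 gene regions and 781 CpGs, and 10 or more reads gave 637 called CpGs of 1322884, 463 of them higher in old sperm. The cause of these changes was not tested.

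Single members turned their direction. Over every listed CpG the difference was 17.2 points for H2bc22, -4.50 for H3c3, 0.32 for H4c11 and -2.01 for H4c2. With 10 or more reads H3c2 was at -5.08 points, and with 5 or more reads in all 5 libraries H3c2 was again at -5.08 and H2bc4 at 1.02. With a library left out the range was -7.14 to 15.1 points for H2ac22, -6.50 to 7.27 for H2bc22, -0.75 to 4.17 for H2bc6, -3.44 to 10.2 for H3c2, -6.88 to 3.12 for H4c11 and -1.80 to 13.1 for H4c2. H2bc4 ranged from -8.57 to -0.74 points and H4c12 from -5.48 to -0.64. H3c4 kept its direction, at 4.35 to 8.10 points.

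Replicate numbers 1 and 2 are shared by both ages, but the labels do not say that they mark a shared day or batch. Deviations of same-numbered libraries correlated at -0.00427 and -0.0128 over 34057 gene regions. The mean of the differences of replicates 1 and 2 was 3.21 points over members and 0.883 in the rest of the windows. It leaves out young replicate 3, and equals the values with that library left out. With a replicate block, the limma-type test called 0 gene regions, 0 members, 0 CpGs and 0 member CpGs. In it 3 of 13 members and 1711 of 34057 gene regions had an unadjusted p under 0.05. Young replicate 3, whose number no old library shares, adds nothing to the age difference in that test. Without the block the counts were 0 of 13 and 1334 of 34057.

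Depth limits the histone results: the median cytosine had 6 or 7 reads, so 1 read moves a CpG by many points, and only 18 of 49 members had a used CpG.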
